A study of Danio rerio with 2 samples.

Results

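The cells described here are the fabp7a-high cells of the 60 hours post fertilization (hpf) zebrafish trunk. The gene fabp7a encodes the brain-type fatty acid binding protein, a classical radial glia marker. Members were selected on measured UMIs, as cells of the 60 hpf library with at least 1000 genes, under 5% of unique molecular identifiers (UMIs, 1 per captured transcript) from embryonic hemoglobin genes, at least 20 UMIs of fabp7a, and at most 4 UMIs each of sox10, a factor of the oligodendrocyte lineage and neural crest, and mbpb, a myelin gene. Of the 4967 cells of that library that passed the gene and hemoglobin filters, 350 were members (7.05%, exact binomial 95% interval 6.35% to 7.79%). The files of the series used here held 18029 cells, of which 12631 passed those filters.

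Both libraries came from Tg(olig2:dsRed) embryos crossed to wild type fish, in which regulatory DNA of olig2 drives a red fluorescent protein. Trunks without heads and yolk were pooled within each stage and dissociated with enzymes, red cells were sorted, and 1 droplet library was made at 28 hpf and 1 at 60 hpf. Reporter protein can persist in the progeny of olig2-expressing cells, which limits the sort as a measure of current olig2 expression. The 42 hpf stage was not analysed here. Since each stage had only 1 library, differences were not tested and carry no p-value, and every interval below is an exact 95% interval that covers counting error only.

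Radial glia are elongated cells that line the central canal of the neural tube and reach its outer surface. They act as neural progenitors and, in fish, also carry out tasks known from mammalian astrocytes, such as taking up glutamate and glycine released at synapses and buffering potassium and acid. In the ventral spinal cord the olig2-expressing pMN domain gives rise to motor neurons and then to oligodendrocyte precursor cells (OPCs), and the neighbouring floor plate secretes the Sonic hedgehog protein.

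Other cells of the same library served as references. The comparison cells were 487 cells with at least 5 UMIs of olig2, at least 3 of gfap and fewer than 20 of fabp7a. The sox10 cells were 157 cells with at least 5 UMIs of sox10 and at most 4 of mbpb. Median depth was 10716 UMIs per cell in the fabp7a-high cells (range 1784 to 149980), 9747 in the comparison cells and 9313 in the sox10 cells. The libraries shared 24 cell barcodes, 3 of them carried by fabp7a-high cells, and none of those 3 belonged to a 28 hpf cell that met the same thresholds. Doublet scoring marked 54 of the fabp7a-high cells (15.4%), 79 of the comparison cells (16.2%) and 273 of the 4617 kept cells that were not fabp7a-high (5.91%), and the marked cells were kept.

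The rule itself made fabp7a high and sox10 and mbpb low, so these values are a description, and so is every other difference from the comparison cells, which the same rule set apart. The level of fabp7a (ENSDARG00000007697), that is, its summed UMIs per 10000 UMIs of the group, was 41.6 in the fabp7a-high cells (41.0 to 42.1) and 2.55 in the comparison cells (2.44 to 2.67). Single fabp7a-high cells ran from 3.17 to 398 UMIs per 10000 with a median of 46.5, and single comparison cells from 0 to 72.5 with a median of 1.28. The ranges of single cells overlapped, since the threshold was on raw UMIs and a deep cell could pass it at a low level. The 41 cells just inside the threshold, with 20 to 24 UMIs, had a fabp7a level of 13.3 and a gfap level of 19.2. The 83 cells just outside, with 15 to 19 UMIs, had levels of 11.8 and 15.6, so the threshold cut through a continuous range. The limits on sox10 and mbpb removed 108 of 458 cells with enough fabp7a, 102 of which exceeded the sox10 limit. The 42 members with 3 or 4 UMIs of sox10 had an olig2 level of 33.8 and a gfap level of 7.19, and the 26 cells with 5 or 6 UMIs of sox10 had 29.4 and 2.88. At the mbpb limit, 82 members had 1 to 4 UMIs and 6 otherwise eligible cells had 5 or more.

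The other 3 markers of radial glia were each higher in the group, but not in every cell. The intermediate filament gene gfap (ENSDARG00000025301) had a level of 28.8 (28.3 to 29.2) against 11.0 (10.7 to 11.2), with single cells from 0 through a median of 20.2 to 356 against 0.675 through 10 to 182. The sodium pump subunit gene atp1a1b (ENSDARG00000019856) had a level of 6.53 (6.33 to 6.75) against 1.07 (0.991 to 1.14), a log2 ratio of 2.62 (2.50 to 2.73). The glutamate transporter gene slc1a3a (ENSDARG00000104431) had a level of 1.0 (0.924 to 1.09) against 0.341 (0.299 to 0.386), a log2 ratio of 1.56 (1.34 to 1.78). All 4 markers had a UMI in 143 of the 350 cells (40.9%), while gfap had none in 50 cells (14.3%). The label of radial glia was thus met in full by a part of the cells, and they are called here by the gene that chose them.

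Some transcripts in a droplet can be free RNA, so the share of cells with a UMI was set beside that in 916 hemoglobin-rich droplets of the same library, which should lack glial genes and had a median of 22976 UMIs. For gfap the share was 85.7% in the fabp7a-high cells and 9.28% in those droplets, and after thinning each cell to 2000 UMIs it was 73.0% and 1.14%. For atp1a1b the shares were 94.3% and 1.97%, and for slc1a3a 42.9% and 0.655%. Thinning left out 2 of the fabp7a-high cells and 41 of the droplets. Hemoglobin genes held a median of 80.6% of UMIs in the droplets and 0.153% in the fabp7a-high cells. Thinning to equal totals thus left the droplets fewer UMIs of other genes, so thinned droplet shares, here and below, are lowered by this.

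**Figure D1:**
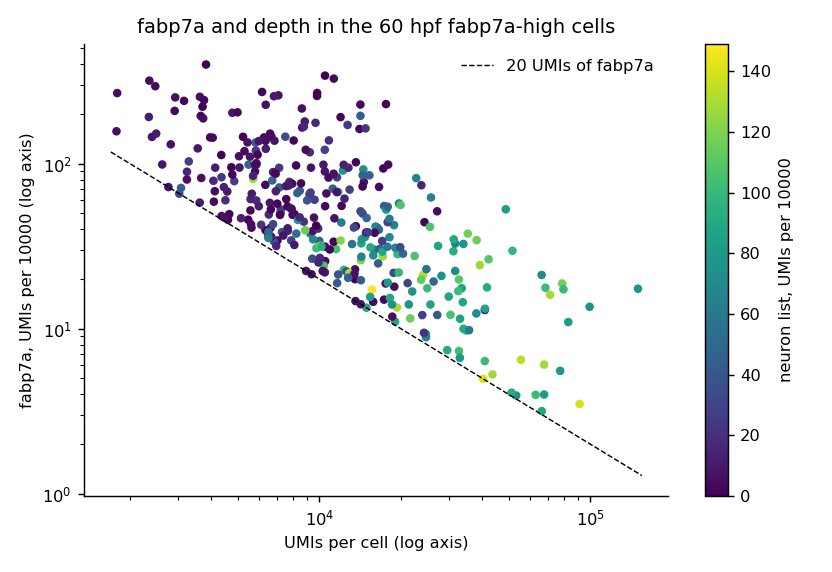
Level of fabp7a (UMIs per 10000, log axis) against UMIs per cell (log axis) for the 350 fabp7a-high cells of the 60 hpf library, with colour for the summed level of 14 neuron genes and a dashed line at 20 UMIs of fabp7a. Deeper cells had lower fabp7a levels and more neuron gene UMIs, and the median fabp7a level went from 103 in cells under 5000 UMIs to 12 in cells of 40000 or more. The threshold on raw UMIs contributes to this trend by design, since it admits shallow cells only at high levels. The lowest levels in these classes were 45.7 and 3.17.

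Depth and neuron genes moved together with these values. In the 47 cells under 5000 UMIs the median level of the neuron list, 14 pan-neuronal genes such as the RNA-binding protein gene elavl3 and the synaptic gene snap25a, was 5.61 per 10000, and 1 cell (2.13%) was a predicted doublet. In the 26 cells of 40000 UMIs or more the median of the list was 95.6 and 11 cells (42.3%) were predicted doublets. The median of slc18a3a, the vesicular acetylcholine transporter of motor neurons, was 0 in the shallow class and 9.60 in the deep one. In the same classes the median of the glutamate transporter gene slc1a2b was 12.1 and 1.08, and that of atp1a1b was 18.8 and 1.92. The median of slc1a3a was 0 and 0.267, in the other direction. The 73 cells over 20000 UMIs (20.9%) held 53.0% of all UMIs of the fabp7a-high cells, and 99 comparison cells (20.3%) were as deep.

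The neuron list did not set the groups apart as a sum. It summed to 63.7 per 10000 in the fabp7a-high cells and 73.2 in the comparison cells, with single cells from 0 through a median of 20.6 to 149 against 0 through 41.9 to 163, and 0 of its 14 genes passed 2-fold in either direction. It reached 50 per 10000 in 116 fabp7a-high cells and 207 comparison cells, and none of its genes was at 0. The motor neuron list likewise had 0 of 12 genes past 2-fold, with 26 fabp7a-high cells at 50 per 10000 or more. With the fabp7a threshold per 10000 UMIs, 1 of 14 neuron genes was lower and 0 higher (median log2 ratio -0.81, against -0.11 by raw UMIs). Of 12 motor neuron genes 5 were then lower and 0 higher (median -0.66, against -0.09). What part these transcripts have in the differences described below was not tested, beyond the values given for cells under 40 neuron list UMIs per 10000.

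Over all 12590 genes with at least 20 UMIs in either group, 932 (7.4%) were at least 2-fold higher in the fabp7a-high cells and 454 (3.61%) at least 2-fold lower, with a median log2 ratio of 0.02 (pseudocount of 1 UMI). In 53 of the higher and 30 of the lower genes, a single cell held most of the UMIs. Among genes with at least 200 UMIs, col10a1a, a collagen gene, stood first with 949 UMIs, all of them in 1 cell. The fin fold genes and2 and and3 also came from single cells, with 338 of 352 and 201 of 206 UMIs in 1 cell. The genes that led and were spread over many cells were slc4a4a in 131 cells, the brain proteoglycan gene bcan in 98, the unnamed gene si:ch211-66e2.5 in 141 (log2 ratio 4.54) and the gap junction gene cx43 in 78 (4.53). List counts under changed settings are to be read against all genes. These were 1313 higher and 814 lower of 12968 with the fabp7a threshold per 10000 UMIs, and 990 and 505 of 11813 without predicted doublets. They were 1102 and 740 of 8572 under 40 neuron list UMIs per 10000. With at most 20000 UMIs they were 1024 and 608 of 10319. Comparison cells of at most 4 UMIs of mbpb gave 1073 and 405 of 12415.

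**Figure D2:**
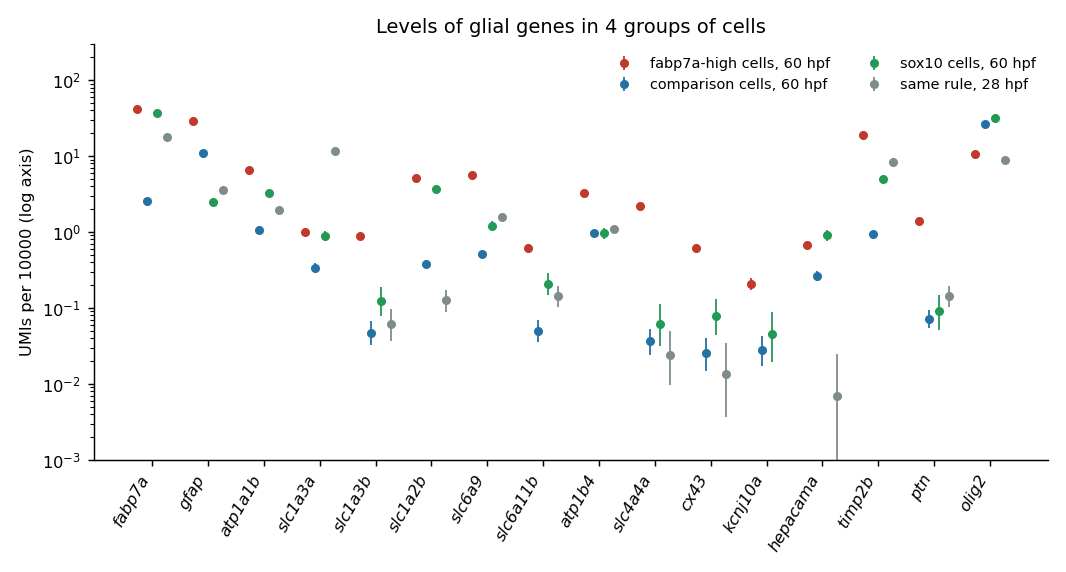
Level of named genes (UMIs per 10000, log axis) in 4 groups, the fabp7a-high, comparison and sox10 cells of the 60 hpf library and the 28 hpf cells that met the same thresholds, with exact 95% Poisson intervals for counting error and no point where a group had 0 UMIs. The level of slc4a4a was 2.2 in the fabp7a-high cells and at most 0.0623 in the 3 other groups.

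Genes for the uptake of transmitters were higher for glutamate and glycine carriers and not for the enzymes of glutamine synthesis. Of 10 genes of this list with at least 20 UMIs, 5 were at least 2-fold higher and 0 lower (median log2 ratio 1.04). The glial glutamate transporter gene slc1a2b had a level of 5.22 (5.03 to 5.41) against 0.375 (0.332 to 0.423), with UMIs in 290 fabp7a-high cells (82.9%), 25.7% of comparison cells and 2.18% of the hemoglobin-rich droplets. Its relative slc1a3b had a level of 0.887 (0.812 to 0.968) against 0.0475 (0.0329 to 0.0663). The glycine transporter gene slc6a9 had a level of 5.59 (5.40 to 5.79) against 0.515 (0.464 to 0.570), a log2 ratio of 3.44 (3.28 to 3.60). The list thus held large differences for carriers of both transmitters. The GABA transporter gene slc6a11b had a log2 ratio of 3.60 (3.14 to 4.17), whereas slc6a1b, another GABA transporter gene, had -0.08 (-0.26 to 0.10). The glutamine synthetase gene glulb had a level of 1.45 (1.36 to 1.56) against 1.48 (1.39 to 1.57), within counting error of each other.

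Ion transport and coupling genes gave the highest share of differences among the glial lists, 10 of 13 higher and 0 lower (median log2 ratio 2.18). The sodium bicarbonate cotransporter gene slc4a4a had a level of 2.2 (2.08 to 2.33) against 0.0363 (0.0237 to 0.0532), a log2 ratio of 5.87 (5.37 to 6.54). It was found in 131 fabp7a-high cells (37.4%), in 20 comparison cells (4.11%) and in 7.53% of the hemoglobin-rich droplets, and after thinning in 21.8% of the fabp7a-high cells and 0.914% of the droplets. The connexin gene cx43 had a level of 0.611 (0.548 to 0.678) against 0.0251 (0.0149 to 0.0397), in 78 cells against 6. Both genes were therefore absent from most fabp7a-high cells at this depth and high in a subset. The inward rectifier potassium channel gene kcnj10a had a log2 ratio of 2.84 (2.21 to 3.66), and hepacama, which encodes a glial adhesion protein, 1.35 (1.1 to 1.61). The sodium pump beta subunit genes atp1b4 and atp1b1a had log2 ratios of 1.73 (1.60 to 1.86) and 1.27 (1.21 to 1.34). The carbonic anhydrase gene cahz had a log2 ratio of 2.60 (2.18 to 3.08), but it is also a red blood cell gene and was found in 98.4% of the hemoglobin-rich droplets. Of 9 erythroid genes 0 were higher and 0 lower (median log2 ratio -0.08), and the source of the cahz difference was not tested.

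Among lipid carrier and synthesis genes 3 of 10 were higher, fabp7a itself included, and 2 lower (median log2 ratio 0.05). The 2 besides fabp7a, its paralog fabp7b and the prostaglandin D synthase gene ptgdsb.1, had 61 and 54 UMIs, of which 1 cell held 28 and 48. Without predicted doublets 2 of 9 genes of the list were higher and 1 lower (median -0.27), and ptgdsb.1 had a log2 ratio of -1.08. The related gene fabp3 had a level of 18 (17.6 to 18.3) against 16.6 (16.3 to 16.9), a log2 ratio of 0.11 (0.08 to 0.15). It was present in 349 fabp7a-high cells and 484 comparison cells.

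Genes of intermediate filaments and their linkers were mostly higher. Of 13 genes, 8 were higher and 1 lower (median log2 ratio 1.19). The simple epithelial keratin genes krt8 and krt18a.1 had log2 ratios of 1.87 (1.72 to 2.02) and 2.01 (1.92 to 2.12), the plectin genes pleca and plecb, whose products link filaments, 1.48 (1.38 to 1.57) and 2.09 (1.95 to 2.23), and the nuclear lamina gene lmna 2.42 (2.22 to 2.63). The progenitor filament gene nes had a level of 1.28 (1.19 to 1.37) against 2.89 (2.77 to 3.02), a log2 ratio of -1.18 (-1.31 to -1.06). The gene vim had levels of 21.9 (21.5 to 22.3) and 28.1 (27.8 to 28.5), a log2 ratio of -0.36 that did not reach 2-fold.

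Matrix and signal genes contributed 11 of 25 and 9 of 20 higher genes, with 1 and 0 lower (median log2 ratios 0.60 and 0.83). The protease inhibitor gene timp2b had a level of 18.8 (18.5 to 19.2) against 0.951 (0.880 to 1.02), and single cells ran from 0 through a median of 2.44 to 234. The proteoglycan genes bcan and cspg5b had log2 ratios of 5.14 (4.26 to 6.66) and 4.12 (3.59 to 4.80), the matrix protein gene sparc 2.94 (2.75 to 3.13), and ccn2a 2.83 (2.63 to 3.06). The product of ccn2a is needed for glial bridging in the regenerating zebrafish spinal cord. The growth factor gene ptn, pleiotrophin, had a level of 1.42 (1.32 to 1.52) against 0.0726 (0.0542 to 0.0952). Its relatives differed from it and from each other, with a log2 ratio of 1.12 (1.0 to 1.23) for mdkb and -0.85 (-0.90 to -0.81) for mdka. The ligand genes wnt4b and wnt7aa had log2 ratios of 3.79 (3.46 to 4.18) and 2.72 (2.52 to 2.94), hbegfa, which encodes an EGF receptor ligand, 2.36 (2.29 to 2.44), and the parathyroid hormone gene pth1a 2.12 (2.07 to 2.17).

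**Figure D3:**
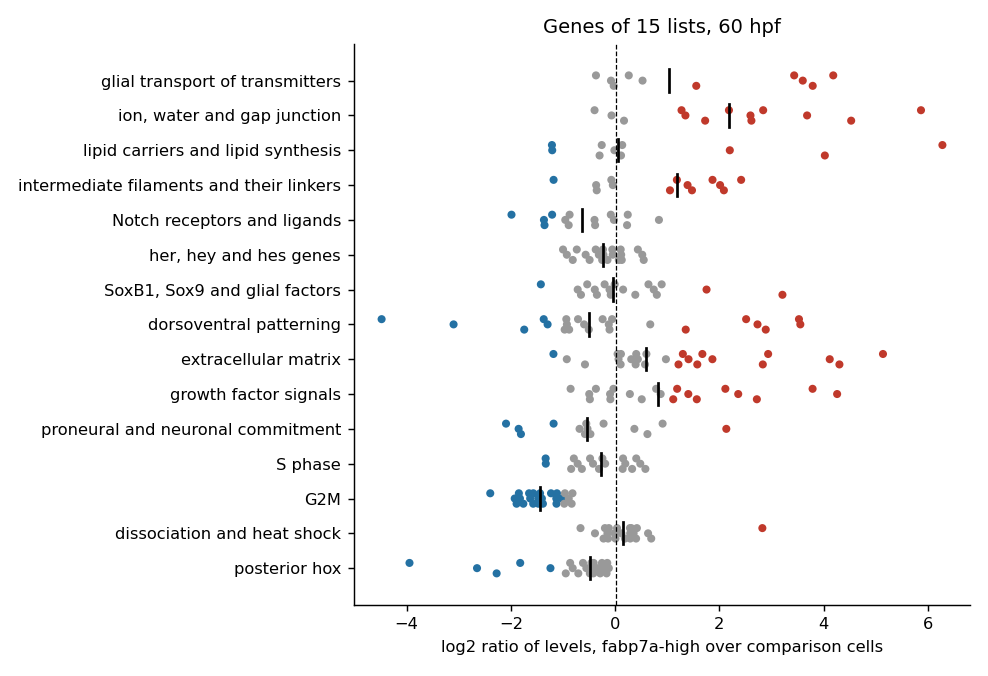
Log2 ratio of levels, fabp7a-high over comparison cells, for the genes of 15 lists, 1 point per gene with at least 20 UMIs in either group, red where at least 2-fold higher, blue where at least 2-fold lower, and a black bar at each median. The medians ran from 2.18 for ion, water and gap junction genes to -1.44 for G2/M genes.

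Some Notch pathway and neuronal commitment genes were lower, and no Notch target gene passed 2-fold before settings were changed. Of 14 Notch receptor, ligand and modifier genes 0 were higher and 4 lower (median log2 ratio -0.63). Among cells under 40 neuron list UMIs per 10000, 0 of 12 were higher and 7 lower. Among cells of at most 20000 UMIs, 1 of 14 was higher and 7 were lower. The receptor gene notch1a had a log2 ratio of -1.21 (-1.33 to -1.09), the ligand genes dla and dld -1.35 (-1.45 to -1.26) and -1.99 (-2.22 to -1.78), and the fringe gene lfng -1.37 (-1.46 to -1.28). The other ligand genes did not pass, among them dlb at -0.96 (-1.04 to -0.88), dlc at -0.38 and jag1a at 0.84. None of 21 her, hey, hes and id genes passed 2-fold (median log2 ratio -0.22). With the fabp7a threshold per 10000 UMIs 1 was higher and 0 lower (median 0.33). Among cells of at most 20000 UMIs 0 were higher and 3 lower (median -0.32), and under the neuron list limit 0 and 2 (median -0.39). The Notch target gene her4.1 had a level of 9.91 (9.65 to 10.2) against 9.20 (8.98 to 9.42), and her15.2 12.4 (12.1 to 12.7) against 12.8 (12.5 to 13.1). Of 14 proneural and commitment genes 4 were lower, 1 was higher and the others passed in neither direction (median log2 ratio -0.54), and neurod4, which acts in newborn neurons, had a level of 0.233 (0.195 to 0.276) against 0.999 (0.928 to 1.08). The proneural genes neurog1 and ascl1a had log2 ratios of -1.81 (-2.14 to -1.50) and -1.85 (-2.42 to -1.37). The paralog ascl1b went the other way, with log2 ratios from 0.28 to 3.06 over 13 alternative settings, at least 2-fold higher in 12.

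Neural stem cell and glial factor genes were mostly at like levels, with 2 of 18 higher and 1 lower (median log2 ratio -0.05). Without predicted doublets 4 were higher and 1 lower (median 0.13). With the fabp7a threshold per 10000 UMIs 6 were higher and 1 lower (median 0.53). The stem cell factor gene sox2 had a level of 2.40 (2.27 to 2.53) against 2.16 (2.05 to 2.27). Its relative sox3 was lower, with a log2 ratio of -1.42 (-1.53 to -1.32). The nuclear factor I genes nfixa and nfixb, of a family that acts in gliogenesis in mammals, had log2 ratios of 1.75 (1.31 to 2.25) and 3.21 (2.44 to 4.31).

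Dorsoventral patterning genes moved in both directions, with 6 of 23 higher and 5 lower (median log2 ratio -0.51), or 6 and 9 of 22 under the neuron list limit. The lower genes included olig2, which the rule itself set high in the comparison cells. Its level was 10.7 (10.5 to 11.0) against 26.4 (26.0 to 26.8). The homeobox genes nkx2.2b and nkx2.9, of the domain next to the floor plate, had log2 ratios of 3.53 (3.11 to 4.04) and 2.73 (1.82 to 4.06). Of 8 floor plate genes 6 were higher (median log2 ratio 2.88). The Sonic hedgehog gene shha had a level of 0.621 (0.558 to 0.690) against 0.0516 (0.0364 to 0.0712), in 103 cells (29.4%) against 14 (2.87%) and 0.218% of hemoglobin-rich droplets. The spondin gene spon1b and the netrin gene ntn1b, both made by the floor plate, had log2 ratios of 3.79 (3.41 to 4.25) and 3.25 (3.05 to 3.47). The floor plate factor gene foxa2 had UMIs in 22 fabp7a-high cells (6.29%) and 3 comparison cells. The floor plate list summed to 50 per 10000 or more in 9 fabp7a-high cells and 1 comparison cell.

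Posterior hox genes, which mark position along the body, were lower at the tail end of the cluster. Of 23 genes 0 were higher and 5 lower (median log2 ratio -0.48), all 5 of the thirteenth paralog group. The gene hoxb13a had a level of 0.0525 (0.0354 to 0.0750) against 0.835 (0.769 to 0.904), in 9 against 54 cells. Limiting both groups to cells under 40 neuron list UMIs per 10000 left 212 and 237 cells and made 21 of the 23 genes at least 2-fold lower, so that the count depended on this limit, and 13 were lower among cells of at most 20000 UMIs.

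Markers of other cells were checked as whole lists. Mesenchyme genes were higher for 5 of 6, skin epithelium genes for 6 of 8 and notochord genes for 4 of 5, and 2, 1 and 1 fabp7a-high cells reached 50 per 10000 in these lists. The skin count did not hold without predicted doublets, with 1 of 7 higher and 1 lower (median log2 ratio -0.54), nor among cells of at most 20000 UMIs, also 1 and 1 of 7 (median -0.66). The mesenchyme and notochord counts held without predicted doublets, with 4 of 5 higher in each (medians 2.91 and 2.63). Among cells of at most 20000 UMIs they were 5 of 6 and 4 of 5 (medians 1.83 and 2.97). The mesenchyme, skin and notochord sums were 1.49, 2.9 and 2.78 per 10000 against 0.352, 1.07 and 0.628. Of 12 mesenchyme and 7 notochord genes, only tcf21 and tbxta were at 0. The notochord genes past 2-fold included shha, which is also in the floor plate list, and cav1 (log2 ratio 4.07, 3.65 to 4.58). The immune and endothelial lists summed to 0.0333 and 0.0508, with mpeg1.1, mpx, pecam1 and tie1 at 0. Of 12 OPC and oligodendrocyte genes 3 were higher and 6 lower (median log2 ratio -0.82). The comparison cells, unlike the fabp7a-high cells, had no limit on mbpb or sox10, both of this list. With comparison cells of at most 4 UMIs of mbpb, 455 cells, 6 of 9 genes were higher and 0 lower (median 1.61). Of this list mbpa, lower without that limit, had 0 UMIs, at least 59.3-fold lower against a floor of 3 counts per group. The claudin gene cldnk, which is not in the list, also had 0 UMIs without that limit, at least 127-fold lower. Other genes of OPCs went the other way. The factor gene olig1 had log2 ratios from 2.81 to 3.97 over 13 alternative settings. The gene prdm8 was at least 2-fold higher in all 13, and the proteoglycan gene cspg4 in 12. The part of these other cell types in the lists above was not tested.

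Most genes of mitosis were lower. Of 25 G2/M genes 20 were lower and 0 higher (median log2 ratio -1.44), or 13 lower (median -1.05) where the fabp7a threshold was set per 10000 UMIs, and of 18 S phase genes 2 were lower. The proliferation gene mki67 had a level of 0.371 (0.323 to 0.425) against 1.01 (0.938 to 1.09), and the spindle gene nusap1 0.156 (0.125 to 0.192) against 0.597 (0.542 to 0.657). Cells with at least 3 G2/M genes were 34 of 350 (9.71%, 6.82% to 13.3%) and 115 of 487 comparison cells (23.6%, 19.9% to 27.6%). After thinning to 2000 UMIs these shares were 3.45% (12 of 348) and 12% (58 of 484), in the same order, and the sox10 cells stood at 14% (22 of 157). Hemoglobin-rich droplets held mki67 in 27.5% before and 7.43% after thinning, against 11.7% and 4.31% of the fabp7a-high cells. Whether those droplets expressed mki67 themselves was not tested.

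**Figure D4:**
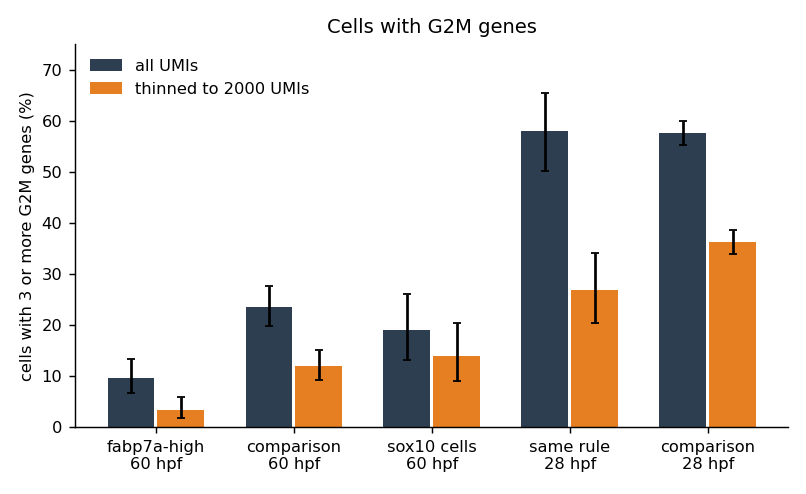
Share of cells (%) with UMIs of at least 3 G2/M genes in 5 groups, at full depth and after thinning to 2000 UMIs, with exact binomial 95% intervals. The fabp7a-high cells of 60 hpf stood at 9.71% and 3.45%, the lowest of the 5 groups on both scales.

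The fabp7a-high cells differed among themselves by olig2. They held no UMI of olig2 in 120 cells, 1 to 4 in 72 and at least 5 in 158. The 192 cells under 5 UMIs had a fabp7a level of 59.6 (58.6 to 60.6) and a gfap level of 42.5 (41.7 to 43.3), and the 158 cells with 5 or more had 29.0 (28.4 to 29.5) and 19.2 (18.7 to 19.6). Both markers were thus higher on the olig2-low side, as were slc4a4a, with 4.01 (3.76 to 4.27) against 0.940 (0.839 to 1.05), and shha, with 1.25 (1.11 to 1.40) against 0.181 (0.139 to 0.233). The olig2-high side was higher in the OPC factor gene olig1, with 1.75 (1.61 to 1.90) against 0.132 (0.0896 to 0.187), and in prdm8, which acts in pMN cells and OPCs, with 1.81 (1.66 to 1.95) against 0.264 (0.202 to 0.338). The proteoglycan gene bcan was also higher on the olig2-high side, with 0.512 (0.438 to 0.594) against 0.221 (0.165 to 0.290), as was the glial factor gene sox9b, with 1.09 (0.983 to 1.21) against 0.255 (0.195 to 0.329). The order of sox2 depended on the split, with 2.37 (2.21 to 2.54) on the olig2-high side and 2.43 (2.24 to 2.64) on the other. Depth and doublets differed as well: the olig2-high cells had a median of 14205 UMIs, 22.8% predicted doublets and a median neuron list level of 33.8, and the olig2-low cells 9352 UMIs, 9.38% and 11.3. Among cells of at most 20000 UMIs, 111 and 166 cells, fabp7a was 51.9 and 82.0, slc4a4a 1.36 and 6.05, and olig1 4.27 and 0.201, in the same directions, but sox2 was 4.32 (3.96 to 4.71) and 3.17 (2.89 to 3.47). With olig2 split at 5 UMIs per 10000, 139 and 211 cells, the differences were smaller for fabp7a, at 34.3 and 46.5, and for slc4a4a, at 1.18 and 2.9, and sox2 was 2.92 (2.71 to 3.15) and 2.04 (1.89 to 2.19).

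A second view took cells by 3 genes chosen after their values were seen. At least 3 UMIs were found for slc4a4a in 99 cells, for shha in 42 and for olig1 in 31, and 199 cells had none of these. The slc4a4a and shha cells shared 21 cells, 21.2% of the former and 50% of the latter, and no olig1 cell was in either set. The slc4a4a cells had the highest slc1a2b level, 10.3 (9.87 to 10.8), and slc6a9 level, 11.9 (11.4 to 12.4). The shha cells had the highest levels of ntn1b, 8.96 (8.33 to 9.62), and ccn2a, 8.05 (7.46 to 8.68). The median of ccn2a over single cells was lower in the shha cells, 1.35, than in the slc4a4a cells, 2.59. It had UMIs in 66.7% of the shha cells and 72.7% of the slc4a4a cells. Both sets had high cx43, at 1.74 and 1.34, where the olig1 cells had none. The olig1 cells had a fabp7a level of 45.0 (43.0 to 47.1) with a gfap level of only 9.82 (8.90 to 10.8), and 13 of the 31 had a gfap UMI. Their olig2 level was 36.4 (34.6 to 38.3), and bcan, at 2.04 (1.63 to 2.52), and sox10, at 1.87 (1.48 to 2.34), were highest there. The 199 remaining cells had a fabp7a level of 31.4 (30.8 to 32.1), a gfap level of 22.1 (21.6 to 22.7) and 18.1% predicted doublets.

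**Figure D5:**
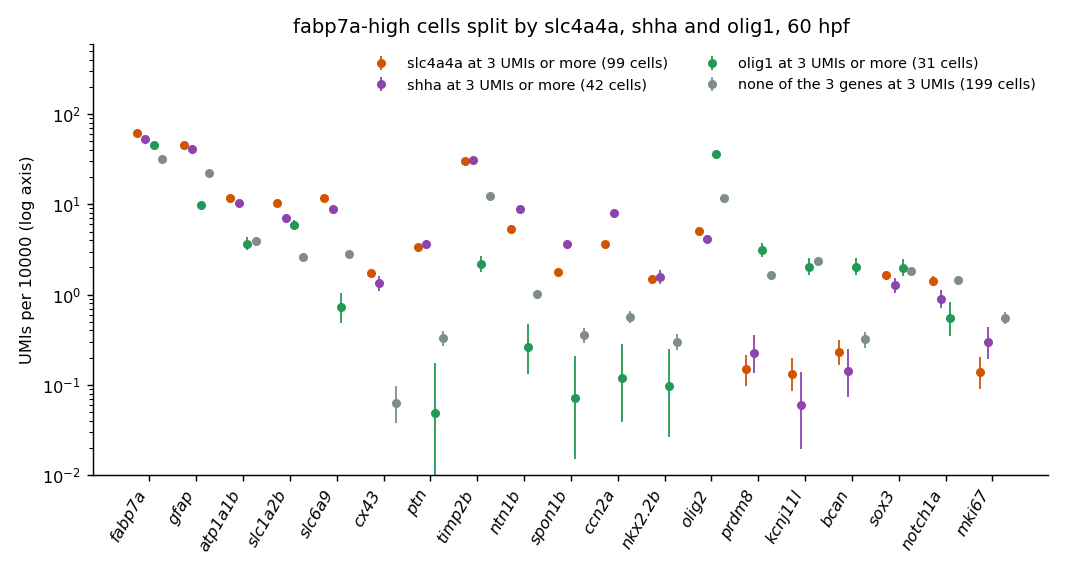
Levels (UMIs per 10000, log axis) in the fabp7a-high cells with at least 3 UMIs of slc4a4a (99 cells), shha (42), olig1 (31) or none of these (199), with exact 95% Poisson intervals and no point at 0 UMIs. The gfap level was 46.1 and 41.3 in the slc4a4a and shha cells and 9.82 in the olig1 cells.

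The sox10 cells of the same library had like levels of some glial genes and lower levels of others. Of 11814 genes, 1717 (14.5%) were at least 2-fold higher in the fabp7a-high cells and 1004 (8.5%) lower, and the thresholds on sox10 separated the groups by construction. The log2 ratio was 0.17 (0.13 to 0.21) for fabp7a, 0.16 (-0.09 to 0.43) for slc1a3a and 0.51 (0.39 to 0.64) for slc1a2b, but 3.53 (3.40 to 3.67) for gfap and 5.02 (4.3 to 6.15) for slc4a4a. Higher on the sox10 side were olig1, with a log2 ratio of -2.35 (-2.50 to -2.21), and bcan, with -2.25 (-2.51 to -2.0). Of the 4 markers 1 was at least 2-fold higher in the fabp7a-high cells, and of 10 transmitter transport genes 3 were higher and 0 lower. Ion, water and gap junction genes were higher in the fabp7a-high cells for 9 of 13, floor plate genes for 7 of 8 and motor neuron genes for 12 of 12, and G2/M genes were lower for 20 of 20. Pigment genes were also lower, but 902 of the 1321 UMIs of tyrp1b in the sox10 cells were in 1 cell. The motor neuron list summed to a level of 25.1 in the fabp7a-high cells and 8.90 in the sox10 cells. Its medians over single cells were only 2.94 and 1.23. Among the fabp7a-high cells that median was 0 under 5000 UMIs. It was 36.7 in the 26 cells of 40000 UMIs or more, of which 11 were predicted doublets. The part of deep cells in the motor neuron count was not tested.

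At 28 hpf 171 of 7664 kept cells met the same thresholds (2.23%, 1.91% to 2.59%), with a median of 12740 UMIs. Stage and library cannot be told apart. Of 12061 genes 3278 (27.2%) were at least 2-fold higher at 60 hpf and 1231 (10.2%) lower, with a median log2 ratio of 0.45 over all genes, against which the stage ratios below are to be read. Glutamate transporter genes differed in opposite directions. The level of slc1a3a was 11.8 (11.4 to 12.2) at 28 hpf and 1.0 at 60 hpf, a log2 ratio of -3.55 (-3.68 to -3.42), and it was found in 99.4% and 42.9% of cells, or 86.0% and 15.5% after thinning. Its relative slc1a2b went the other way, from 0.126 (0.0888 to 0.174) to 5.22, a log2 ratio of 5.33 (4.90 to 5.88), and from 26 of 171 cells to 290 of 350.

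The glial lists differed in how they compared between stages. Transmitter transport genes were higher at 60 hpf for 5 of 10 and lower for 3 (median log2 ratio 0.27), and filament genes higher for 3 of 13 and lower for 1 (median -0.26), both medians under that of all genes. Ion, water and gap junction genes were higher for 9 of 13 and lower for 0 (median log2 ratio 2.37), and slc4a4a had a log2 ratio of 6.34 (5.48 to 7.85). The channel gene kcnj10a had no UMI at 28 hpf and was at least 20.4-fold higher at 60 hpf against a floor of 3 counts over the group. The level of gfap was 3.59 (3.38 to 3.82) at 28 hpf and 28.8 at 60 hpf, and that of fabp7a itself 17.7 (17.2 to 18.2) and 41.6. Of 24 G2/M genes all 24 were lower at 60 hpf, and of 19 S phase genes 18 were. Cells with at least 3 G2/M genes were 57.9% at 28 hpf (50.1% to 65.4%), or 26.9% after thinning. The 1733 cells of 28 hpf chosen as the comparison cells were stood at 57.6%, and the 60 hpf comparison cells at 23.6%. The G2/M list sums of these 2 groups were 16.1 and 5.63 per 10000, and their S phase sums 13.4 and 4.14. Lower cell cycle genes at 60 hpf were thus not particular to the fabp7a-high cells. Among the fabp7a-high cells, floor plate genes were higher at 60 hpf for 1 of 8 and lower for 3 (median log2 ratio -0.60). Among them foxa2 had a log2 ratio of -2.22 (-2.78 to -1.72), and the patterning gene nkx2.9 had -3.55 (-4.03 to -3.15). Among genes with at least 200 UMIs the smallest log2 ratio was -5.78 (-6.76 to -5.12), of prtgb, a protogenin gene, with levels of 1.44 and 0.0245. The neuron list summed to 28.1 per 10000 at 28 hpf and 63.7 at 60 hpf, with 8 of its 14 genes higher, and its part in the differences between stages was not tested.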

How the data were processed

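Each library was a 10x Genomics 3′ gene expression library of sorted cells, deposited as a filtered matrix of UMI counts per gene and cell. The authors made these counts with Cell Ranger (version 5.0.0 per the file headers) on GRCz11, and their processing notes also name Scanpy. The deposited counts are whole and not normalized. The 60 hpf matrix held 7905 cells and the 28 hpf matrix 10124, with medians of 5043 and 6482 UMIs per cell.

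Cells were selected on raw UMIs summed by symbol. Over all genes, UMIs were summed per group for each of 27771 gene identifiers, 550 symbols having more than 1, and scaled per 10000. A gene with 20 or more UMIs in either group was called where levels differed 2-fold or more (pseudocount of 1 UMI). This rule was run on simulated group sums with counting error and planted changes. The simulation had no variation between cells, so it could not show how genes held mostly by 1 cell affect the calls. Intervals for levels are exact Poisson, for shares Clopper-Pearson, and for ratios exact given the total, all at 95% and for counting error only. Python 3.11.15, numpy 2.4.6, scipy 1.17.1, pandas 2.3.3 and matplotlib 3.10.9 were used, with Scrublet in scanpy 1.11.5 for doublets at 0.8% per 1000 cells.

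The members and the gene lists were chosen with earlier results of these data known. Named genes were the 4 markers, the 12 largest and 12 smallest log2 ratios among genes with at least 200 UMIs, and, from each list, up to 4 members of highest level and those past 2-fold. The genes of the olig2 and 3-gene splits were chosen after their values were seen. Alternatives changed the gene minimum, the upper limits, doublets, the fabp7a threshold, the hemoglobin limit, the totals, averaging, depth, the fold and the UMI minimum.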

Additional observations from a re-analysis of the deposited data

How the results depend on the processing

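No paired analysis was possible because each stage had 1 library. The share of fabp7a-high cells was 5.72% with a minimum of 500 genes, also 5.72% with at most 4000 genes and 20% mitochondrial UMIs, 8.72% with fabp7a of at least 15 UMIs and 5.40% with at least 30. Higher and lower genes numbered 1820 and 1013 of 12590 at 1.5-fold. They numbered 549 and 260 of 9468 with a minimum of 50 UMIs, and 3331 and 1560 of 22398 with none. Thinning to 2000 UMIs left 5719 genes to compare, 495 of them higher and 335 lower. With the fabp7a threshold per 10000 UMIs 1313 of 12968 genes were higher and 814 lower. As a mean over cells 1263 of 12590 genes were higher and 714 lower. Without predicted doublets 990 of 11813 genes were higher and 505 lower. The share of cells with G2/M genes was 6.69% with at most 4000 genes, 5.39% with the threshold per 10000, 3.45% thinned and 15.7% with at least 2 genes. Added after seeing the data, a limit of 20000 UMIs gave a share of 6.14%, with 1024 higher and 608 lower of 10319 genes. With comparison cells of at most 4 UMIs of mbpb, also added then, 1073 of 12415 genes were higher and 405 lower. Another limit added then, of 40 neuron list UMIs per 10000, gave 1102 higher and 740 lower of 8572 genes. The called genes changed as well as their number. Of the 932 higher and 454 lower genes of the main contrast, 784 and 287 were called again with the threshold per 10000. After thinning 295 and 122 were, under the neuron list limit 601 and 289, and without predicted doublets 793 and 375.

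Across the 13 alternatives that bear on it, the log2 ratio of fabp7a ranged from 3.85 to 4.34, gfap from 1.32 to 1.75, slc1a2b from 3.76 to 4.88 and slc4a4a from 5.31 to 8.48. Each alternative still split the groups by fabp7a and kept the gfap minimum in the comparison cells. The fabp7a ratio was therefore bound to stay high, and its range is no check of it. The cause of the changes of sign was not tested. Ratios that changed sign were myl13 (0.60) and sst2 (0.49) with at most 4000 genes, si:dkey-248g15.3 (-0.28) and ptgdsb.1 (-1.08) without predicted doublets, pax3a (-0.10) with fabp7a of at least 30 UMIs, col10a1a (-8.54) and myrf (0.10) with the threshold per 10000, and fabp11a (0.061) and sfrp5 (-0.11) after thinning. With at most 20000 UMIs they were and3 (-0.42), si:dkey-248g15.3 (-0.41), myl13 (0.38), sst2 (0.38) and ptgdsb.1 (-0.79). Under the neuron list limit they were pvalb4 (0.58), myl10 (0.90), myl13 (2.75) and sst2 (0.17). With comparison cells of at most 4 UMIs of mbpb, also added after seeing the data, they were mbpb (0.28), si:ch73-335m24.2 (1.24), mag (0.56), mbpa (0.24), cldnk (0.24), hapln1b (1.52), myrf (1.61) and fa2h (1.1). The genes mbpa and cldnk had 0 UMIs in the fabp7a-high cells. Their ratio of 0.24 therefore reflects the pseudocount of 1 UMI and the group totals, and shows no higher level.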
